A study of Mus musculus with 10 samples.

Results

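Genes by which Müller glia keep the retinal environment constant were followed in mouse neural retinas under normal light (NL) and after light damage (LD). The set was chosen by gene symbol and known role and holds 10 of the 54532 genes listed: *Glul* and *Slc1a3* for glutamate, *Kcnj10* for potassium, *Aqp1* and *Aqp4* for water, *Car2* and *Car14* for pH, and *Dkk3*, *Apoe* and *Clu* as secreted proteins. The choice was made with earlier results of these data known. All 10 were tested. After LD, *Glul* and *Aqp1* fell by over 4-fold, *Car14* fell, *Clu* rose by about a factor of 2, and the other 6 did not pass the test.

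The RNA came from whole neural retinas of 2-month-old albino BALB/c mice. The labels describe 12 hr of dark adaptation for both groups, followed by 1 day at 200 lux for the 5 NL retinas or at 15000 lux for the 5 LD retinas. Those of the NL group are numbered 1, 4, 5, 7 and 8, those of the LD group 1, 4, 6, 7 and 8, and values are given below in that order. In the study the comparison served to look for genes that respond to light stress. The labels do not say whether retinas came from separate mice, so p-values measure the spread between these samples, which may in part be technical.

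Müller glia span the whole thickness of the retina and contact every type of neuron. They take up glutamate released at synapses and turn it into glutamine, pass potassium and water from the tissue to vessels and vitreous, buffer the acid that photoreceptors produce, and secrete lipid carriers. Several of these genes are also used by other retinal cells: *Aqp1* is known in rodent photoreceptors and amacrine cells, *Car2* in some neurons, and *Apoe* in microglia. In RNA of a whole retina, fewer cells of a type and less RNA per cell cannot be told apart.

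Promoter windows of the 250 bases before the annotated start were available from RefSeq (GRCm38.p6) for 6 of the 10 genes. The pair of genes that handles glutamate is shown, because its members moved apart after LD. Capitals mark matches to 1 of 6 short motifs, searched on both strands.

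*Glul*, chr1:153899679-153899928, plus strand: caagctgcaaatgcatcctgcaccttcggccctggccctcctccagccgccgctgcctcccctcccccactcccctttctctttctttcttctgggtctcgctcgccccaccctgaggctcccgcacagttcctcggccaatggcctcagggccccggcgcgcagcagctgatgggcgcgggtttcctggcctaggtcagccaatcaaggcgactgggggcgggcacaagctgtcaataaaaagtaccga

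*Slc1a3*, chr15:8710808-8711057, minus strand: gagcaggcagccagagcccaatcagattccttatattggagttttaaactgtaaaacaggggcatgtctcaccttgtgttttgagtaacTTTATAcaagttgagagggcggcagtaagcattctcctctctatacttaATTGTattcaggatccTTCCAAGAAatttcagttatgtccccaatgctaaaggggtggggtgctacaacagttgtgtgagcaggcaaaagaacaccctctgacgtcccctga

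The *Glul* window was richer in G and C, at 64.8%, than that of *Slc1a3*, at 44.8%. It held none of the 6 motifs. Neither did those of *Kcnj10* and *Aqp1*. The *Slc1a3* window held a STAT motif (TTCNNNGAA) 96 bases before the start, a SOX motif (ACAAT) at 112 bases and a TATA motif (TATAAA) at 161 bases, none of them overlapping another. Of 32851 RefSeq promoter windows of this length, 7.02% held the STAT motif, 27.7% the SOX motif and 12.4% the TATA motif. A CRX motif (TAATCC), the core bound by a photoreceptor homeodomain factor, stood 61 bases before the start of *Car14* and 80 bases before 1 of the 3 annotated starts of *Apoe*, and was in 6.25% of all windows. The same *Apoe* window held a SOX motif at 144 bases, and that of another start held a TATA motif at 100 bases and 1 overlapping it at 96 bases. The AP-1 motif (TGANTCA), in 6.75% of windows, and the CRE motif (TGACGTCA), in 1.55%, were in none of the windows of these genes. These are matches of letters, not measured binding.

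Values are FPKM, fragments per kilobase of gene relative to library size, as scaled by the authors. Each NL retina had 21343389 to 26832535 reads and each LD retina 18965090 to 23378090, and each of the 10 genes rested on at least 367 reads in every retina. Within a group 3 pairs were much alike. The chi-square per gene between their reads was 2.52 (LD-4 with LD-6), 2.71 (NL-5 with NL-7) and 3.41 (LD-1 with LD-7), and that of the remaining pairs was 10.9 to 38.6. Counting noise alone gives 1. A value above 1 does not show that the retinas of a pair came from separate mice. Their origin is not given, and all 10 were kept as separate samples. Rod genes were abundant, as the neural retina label implies, and pigment epithelial genes were also detected. All 12 rod genes were lower after LD, with a summed level of 10497 to 12757 FPKM in NL and 1648 to 3212 FPKM in LD retinas. The 10 microglial markers summed to 32.4 to 49.7 FPKM in NL and 64.7 to 149.9 FPKM in LD, and 7 of them were higher. With each of the closest pairs averaged into 1 sample, 2 of these markers were higher. The 10 pigment epithelial markers summed to 60.5 to 162 and 68.3 to 137 FPKM, with none called. Among them *Ttr* was at 57.6 ± 23.9 and *Rpe65* at 12.9 ± 5.97 FPKM in NL. The part of pigment epithelial RNA in the values below was not tested. Of 7 red cell genes 4 were tested, none was called, and *Hba-a2* was listed at 0 in every retina.

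A gene was called higher or lower at an adjusted p under 0.01 in limma, adjusted over the 24508 genes tested. By this rule 1 of the 10 genes was higher (*Clu*) and 3 were lower (*Glul*, *Aqp1* and *Car14*). Among all genes tested, 9.3% were called higher and 7.74% lower. With a change of over 2-fold required as well, 1 was higher and 2 were lower, where the shares among all genes were 4.13% and 2.37%. The LD values were wholly above those in NL in *Slc1a3* and *Clu* and wholly below them in *Glul*, *Aqp1* and *Car14*, and in 5 genes the groups overlapped. Of all genes tested, 11.8% had LD values wholly above and 10.6% wholly below those in NL. The median log2 change of the 10 genes was -0.01, as was that of all genes tested.

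**Figure D1:**
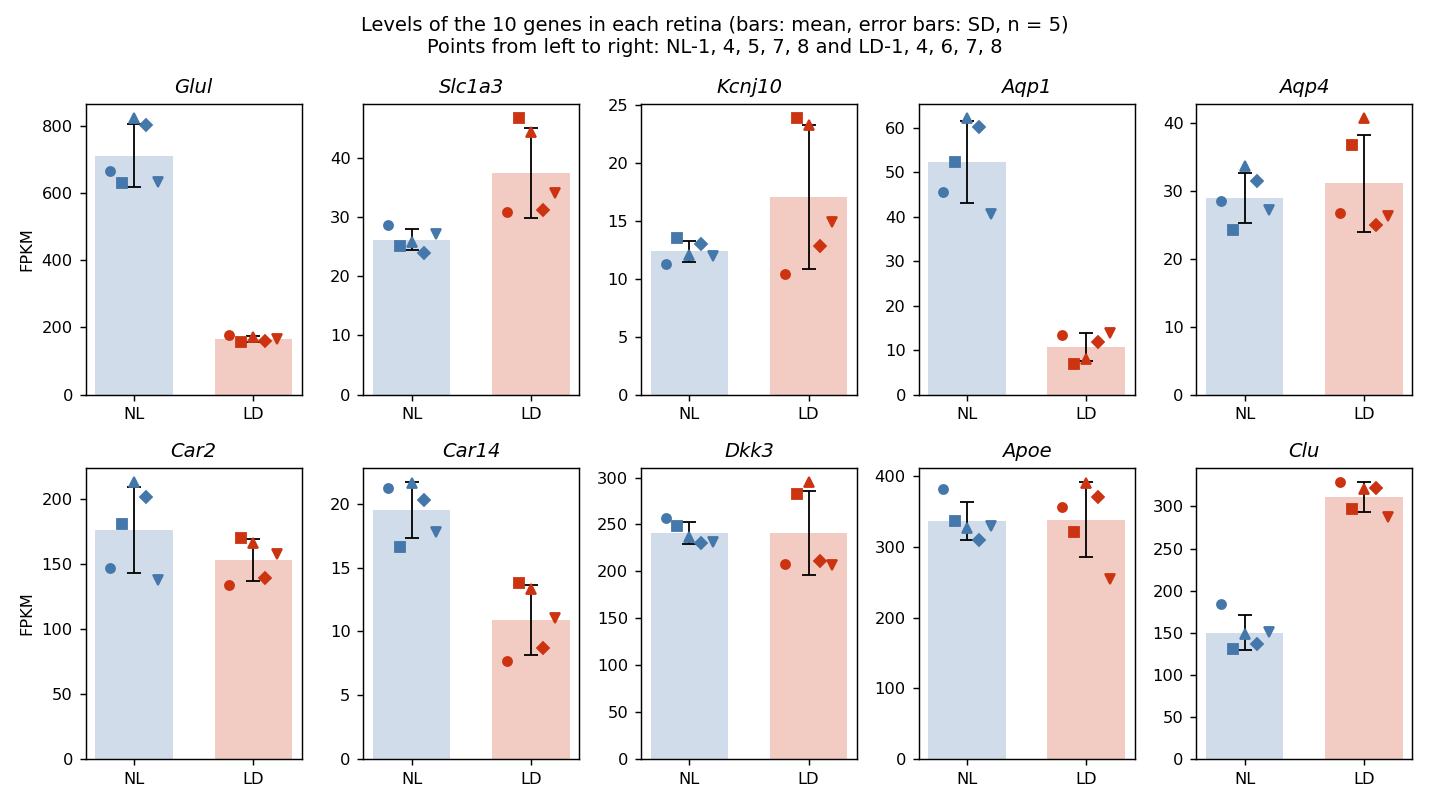
Level of each of the 10 genes (y axis, FPKM, linear and starting at 0) in the NL (blue) and LD (red) retinas; points are single retinas, bars the mean and error bars the SD of 5 retinas. The groups are apart in *Glul*, *Aqp1*, *Car14*, *Clu* and *Slc1a3* and overlap in the other panels.

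*Glul* encodes glutamine synthetase, the enzyme with which Müller glia join ammonia to glutamate, and lies on chromosome 1 from 153899944 to 153909723 of GRCm38 (plus strand). Its level was 666, 629, 825, 802 and 633 FPKM in the NL retinas and 177, 156, 170, 158 and 165 FPKM in the LD retinas. The highest LD retina was thus far below the lowest NL retina, and the coefficient of variation was 5.30% in LD and 13.3% in NL. The mean level (± SD over 5 retinas, here and below) fell from 711 ± 94.8 to 165 ± 8.77 FPKM, a log2 change of -2.09 ± 0.10 (SE), 95% interval -2.31 to -1.88, with an adjusted p of 1.99e-07. This was a level 4.27-fold lower, and only 0.547% of the genes tested had a lower log2 change. Among 15464 protein-coding genes ranked by mean FPKM, *Glul* was 15th in NL and 98th in LD. A pseudogene copy, *Glns-ps1*, was at 0.936 to 1.59 FPKM in NL and 0.132 to 0.404 FPKM in LD. How reads matching both genes were counted is not given, and their part in the *Glul* value was not tested. *Teddm2*, on the opposite strand, shares 116 exon bases with *Glul* and reached at most 0.854 FPKM.

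*Slc1a3* encodes GLAST, the glutamate transporter by which Müller glia clear glutamate from the extracellular space, and lies on chromosome 15 from 8634124 to 8710764 (minus strand). The NL retinas had 28.6, 25.2, 25.9, 24.0 and 27.2 FPKM and the LD retinas 30.9, 46.9, 44.5, 31.3 and 34.1 FPKM. The lowest LD retina exceeded the highest NL retina, with LD-4 and LD-6 well above the other LD retinas. Means were 26.2 ± 1.79 and 37.5 ± 7.58 FPKM, and the log2 difference of 0.50 ± 0.12 (SE), 95% interval 0.23 to 0.77, had an adjusted p of 0.0109 and so missed the threshold narrowly. It passed under several other settings, among them limma-voom on the recovered reads (0.52, adjusted p = 0.00535) and a scaling without the authors' factor per retina (0.63, adjusted p = 0.00334). The range of its adjusted p over all settings was 0.00173 (without LD-1 and LD-7) to 0.0858. Without LD-4 and LD-6 the difference was 0.29 (adjusted p = 0.0117).

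The ratio of *Glul* to *Slc1a3* within a retina does not depend on library scaling. Its range was 23.3 to 33.4 in NL and 3.33 to 5.74 in LD. On the log2 scale it was lower in LD by 2.59 (4.76 ± 0.25 in NL and 2.16 ± 0.32 in LD), with a two-sided exact permutation p of 0.00794, the smallest that 5 against 5 can give, and 0.00992 after Benjamini-Hochberg adjustment over the 5 ratios examined. The RNA levels of *Glul* and *Slc1a3* in whole retina thus changed differently, though the rise of *Slc1a3* was not itself called.

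Among 19 other genes of glutamate and glutamine handling, 6 were higher, 3 were lower and 10 were not called, with a median log2 change of -0.13. With each of the closest pairs averaged into 1 sample, 2 were higher, 3 were lower and 14 were not called. *Slc38a3*, a glutamine transporter of glia, fell from 98.6 ± 3.36 to 63.9 ± 7.35 FPKM. *Slc1a7*, a glutamate transporter of photoreceptors and bipolar cells, fell from 49.9 ± 4.25 to 31.2 ± 5.24 FPKM. The largest rises were in *Slc7a11*, which exchanges glutamate for cystine (1.25 ± 0.53 to 3.68 ± 0.42 FPKM), and *Slc1a4*, a transporter of neutral amino acids (4.76 ± 1.09 to 11.6 ± 2.55 FPKM). *Glud1*, *Slc1a1*, *Slc1a6* and *Slc38a2* also rose, by 0.35, 0.88, 0.53 and 0.66 on the log2 scale. *Got1*, the most abundant gene of the list with 102 ± 9.40 FPKM in NL, was at 103 ± 14.4 FPKM in LD (adjusted p = 0.976).

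*Kcnj10* encodes Kir4.1, the inward rectifier through which Müller glia carry potassium away from active neurons. It lies on chromosome 1 from 172341210 to 172374085 (plus strand). Its NL values of 11.3, 13.5, 12.0, 13.0 and 12.0 FPKM were tightly grouped, while the LD values were 10.4, 23.9, 23.3, 12.8 and 14.9 FPKM. LD-4 and LD-6 were above every NL retina by a wide margin, LD-8 was slightly above, LD-7 was within the NL range and LD-1 was below it. The means were 12.4 ± 0.90 and 17.1 ± 6.19 FPKM (log2 difference 0.39 ± 0.21 SE, 95% interval -0.08 to 0.86, adjusted p = 0.213). Without LD-4 and LD-6 the difference was 0.03 (adjusted p = 0.908), and without LD-1 and LD-7 it was 0.71 (adjusted p = 0.00718), so that the value depended on which of these pairs was included.

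Of 20 other genes of potassium handling 19 were tested, of which 3 were higher and 3 lower, with a median log2 change of 0.09. With the closest pairs averaged, 2 were higher and 1 was lower. *Atp1b2*, a beta subunit of the sodium pump, fell from 314 ± 11.4 to 228 ± 30.4 FPKM. This call was lost after quantile normalization (-0.24 on the log2 scale, adjusted p = 0.0663). It was also lost as TPM (adjusted p = 0.0129) and without the authors' factor per retina (adjusted p = 0.0139). *Kcnj14*, encoding another inward rectifier (Kir2.4), fell from 144 ± 21.6 to 38.8 ± 8.10 FPKM, and *Slc12a2*, a sodium, potassium and chloride cotransporter, rose from 12.6 ± 1.16 to 18.8 ± 0.93 FPKM. *Slc12a7* was also higher, by 0.80 on the log2 scale.

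*Aqp1* and *Aqp4* encode water channels, of which *Aqp4* is that of the Müller cell membrane. *Aqp1* (chromosome 6 from 55336432 to 55348555, plus strand) was at 45.6, 52.3, 62.3, 60.1 and 40.7 FPKM in NL and at 13.3, 6.89, 7.91, 11.7 and 13.9 FPKM in LD. Each LD retina was below every NL retina, and LD-4 and LD-6 were the lowest. The mean fell from 52.2 ± 9.23 to 10.7 ± 3.18 FPKM, a log2 change of -2.31 ± 0.21 (SE), 95% interval -2.76 to -1.85, with an adjusted p of 2.02e-05. This was 4.94-fold lower, and 0.347% of genes had a lower log2 change. Its rank among protein-coding genes went from 658 to 5007.

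The LD retinas with the least *Aqp1* were also those with the lowest rod markers: the summed level of the 12 rod genes was 1648 FPKM in LD-4 and 1760 FPKM in LD-6, and 2635 to 3212 FPKM in LD-1, LD-7 and LD-8. The part of the rod RNA in the fall of *Aqp1* was not tested. Without LD-4 and LD-6 the log2 change of *Aqp1* was -1.99.

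*Aqp4*, on chromosome 18, had 28.4, 24.2, 33.7, 31.4 and 27.1 FPKM in the NL retinas and 26.7, 36.7, 40.8, 24.9 and 26.3 FPKM in the LD retinas. The groups overlapped, and only LD-4 and LD-6 exceeded the NL range. Means were 29.0 ± 3.68 and 31.1 ± 7.16 FPKM (log2 difference 0.08 ± 0.15 SE, 95% interval -0.24 to 0.41, adjusted p = 0.733). The ratio of *Aqp1* to *Aqp4* was 1.5 to 2.16 in NL and 0.188 to 0.529 in LD retinas, a log2 difference of -2.40 (exact permutation p = 0.00794, adjusted 0.00992). The RNA levels of the water channels in whole retina thus changed differently, and the part of the cell types in this was not tested. The ratio of *Kcnj10* to *Aqp4*, whose proteins share the Müller cell endfeet, was 0.357 to 0.559 in NL and 0.388 to 0.652 in LD, a difference of 0.31 on the log2 scale that did not pass (exact permutation p = 0.119).

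The list of other aquaporins and of the dystrophin scaffold that holds *Aqp4* at the endfeet had 12 of 16 genes tested, 2 of them lower and none higher, with a median log2 change of 0.01. *Dmd*, encoding dystrophin, fell from 10.7 ± 0.69 to 4.66 ± 0.68 FPKM (adjusted p = 9.3e-06). *Dag1*, the dystroglycan that links dystrophin to the matrix, was at 12.3 ± 0.59 and 14.6 ± 1.34 FPKM (adjusted p = 0.0201). No other aquaporin had a group mean above 1.76 FPKM.

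**Figure D2:**
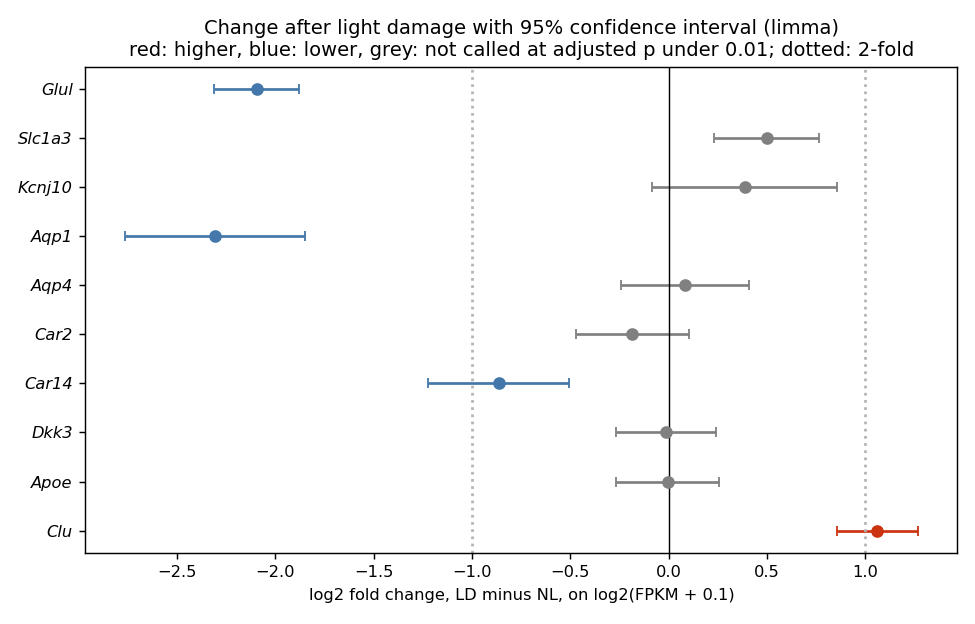
Log2 fold change after LD (x axis, LD minus NL on log2 of FPKM plus 0.1) of each of the 10 genes with its 95% confidence interval from limma; blue is lower, red higher, grey not called, and dotted lines mark 2-fold. The intervals of *Glul* and *Aqp1* lie wholly beyond 2-fold lower, and those of *Clu* and *Car14* cross a dotted line.

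*Car2* and *Car14* encode carbonic anhydrases, a soluble one in the cytoplasm and one of the plasma membrane, which turn CO2 into bicarbonate. *Car14* (chromosome 3 from 95897768 to 95904691, minus strand) had 21.2, 16.6, 21.7, 20.3 and 17.8 FPKM in NL and 7.66, 13.8, 13.4, 8.67 and 11.02 FPKM in LD. The groups did not overlap. Here LD-4 and LD-6 were the LD retinas nearest to the NL range. The mean fell from 19.5 ± 2.21 to 10.9 ± 2.74 FPKM, a log2 change of -0.86 ± 0.16 (SE), 95% interval -1.22 to -0.51, with an adjusted p of 0.00256. The call was lost on averaging each of the closest pairs into 1 sample (-0.83, adjusted p = 0.0153). *Aph1a*, on the opposite strand, shares 445 exon bases with *Car14* and was at a mean of 9.43 FPKM in NL and 12.7 FPKM in LD. Whether reads were counted by strand is not given in the sources used here, so reads from the shared bases cannot be assigned with certainty.

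*Car2* (chromosome 3 from 14886273 to 14900770, plus strand) was at 147, 181, 213, 202 and 138 FPKM in NL and at 134, 170, 166, 140 and 158 FPKM in LD. All LD values but that of LD-1 were inside the NL range. The means of 176 ± 33.1 and 154 ± 16.2 FPKM gave a log2 difference of -0.18 ± 0.13 (SE), 95% interval -0.47 to 0.10, with an adjusted p of 0.339. The ratio of *Car2* to *Car14* was 6.94 to 10.9 in NL and 12.3 to 17.4 in LD retinas, higher by 0.69 on the log2 scale (exact permutation p = 0.00794, adjusted 0.00992).

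Of 22 other carbonic anhydrases and acid-base transporters 18 were tested. *Car13* was higher, going from 0.201 ± 0.12 to 0.967 ± 0.24 FPKM, and 2 were lower, with a list median of 0.11 on the log2 scale. With the closest pairs averaged, the call of *Car13* was lost and 2 genes were lower. *Slc16a1*, encoding the monocarboxylate transporter MCT1 that carries lactate with a proton, fell from 46.0 ± 2.23 to 17.7 ± 0.40 FPKM (adjusted p = 1.06e-08). *Slc4a7*, a sodium bicarbonate cotransporter, fell from 20.6 ± 0.49 to 8.72 ± 1.87 FPKM. *Bsg*, encoding basigin, the partner that brings monocarboxylate transporters to the membrane, was at 354 ± 17.7 and 285 ± 27.3 FPKM (adjusted p = 0.0133).

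*Dkk3*, *Apoe* and *Clu* encode secreted proteins. *Dkk3* (chromosome 7 from 112116017 to 112159057, minus strand) is a divergent member of the Dickkopf family of Wnt modulators. It was at 257, 248, 236, 230 and 231 FPKM in NL and at 208, 283, 295, 211 and 207 FPKM in LD. The LD retinas lay on both sides of the narrow NL range, with LD-4 and LD-6 above it and the other 3 below it. The means were alike, 240 ± 11.7 and 241 ± 44.4 FPKM (log2 difference -0.02 ± 0.11 SE, 95% interval -0.27 to 0.24, adjusted p = 0.944), while the coefficient of variation was 4.86% in NL and 18.4% in LD.

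Of 8 other genes of the Dickkopf family and its receptors 6 were tested. *Kremen1*, a receptor for Dickkopf proteins, rose from 7.17 ± 0.35 to 26.7 ± 8.47 FPKM (adjusted p = 3.56e-05). *Lrp6*, the Wnt coreceptor, fell from 7.40 ± 0.20 to 5.94 ± 0.38 FPKM. This call was lost as TPM (adjusted p = 0.0163) and without the authors' factor per retina (adjusted p = 0.0185). Averaging the closest pairs also removed the call of *Lrp6*. *Lrp5*, its relative, was at 1.63 ± 0.11 and 2.63 ± 0.70 FPKM (adjusted p = 0.0139).

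*Apoe* (chromosome 7 from 19696109 to 19699188, minus strand) encodes apolipoprotein E, the main lipid carrier made by glia. It was at 382, 337, 326, 310 and 329 FPKM in NL and at 357, 321, 390, 370 and 254 FPKM in LD. LD-8 had the lowest value and LD-6 the highest of the 10, with the rest in between. Means were 337 ± 27.1 and 338 ± 53.4 FPKM (log2 difference -0.01 ± 0.12 SE, 95% interval -0.27 to 0.26, adjusted p = 0.98).

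*Clu* (chromosome 14 from 65968483 to 65981547, plus strand) encodes clusterin, an extracellular chaperone that also travels on lipoproteins. The NL retinas had 185, 131, 148, 137 and 151 FPKM and the LD retinas 329, 297, 320, 322 and 288 FPKM. The groups were far apart, and the LD values were close together, with a coefficient of variation of 5.72%. The mean rose from 150 ± 20.9 to 311 ± 17.8 FPKM, a log2 change of 1.06 ± 0.09 (SE), 95% interval 0.85 to 1.27, with an adjusted p of 1.79e-05. This was a 2.08-fold increase, and 5.08% of the genes tested had a higher log2 change. The ratio of *Apoe* to *Clu* was 2.07 to 2.57 in NL and 0.883 to 1.22 in LD, a log2 difference of -1.07 (exact permutation p = 0.00794, adjusted 0.00992), so the RNA levels of these lipid carriers changed differently.

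Of 21 other genes for lipoproteins, lipid efflux pumps and lipoprotein receptors 18 were tested, with 1 higher, 6 lower and a median log2 change of -0.09. Without LD-4 and LD-6 the counts were 0 and 4, and without the authors' factor per retina they were 4 and 4. With the closest pairs averaged they were 0 and 4. The lower ones were pumps and receptors. *Abcg1*, which loads cholesterol onto lipoproteins, fell from 24.6 ± 2.15 to 11.01 ± 1.2 FPKM, and *Vldlr*, a receptor for lipoproteins that carry apolipoprotein E, fell from 37.7 ± 1.89 to 19.96 ± 3.21 FPKM. *Abca7*, *Abcg4*, *Scarb1* and *Sort1* fell by 0.31, 0.56, 0.92 and 0.28 on the log2 scale. The calls of *Abcg4* and *Sort1* were lost as TPM (adjusted p = 0.0206 and 0.0549). They were also lost without the authors' factor per retina (adjusted p = 0.0169 and 0.0665). *Lcat*, the enzyme that esterifies lipoprotein cholesterol, rose from 1.67 ± 0.29 to 2.78 ± 0.56 FPKM.

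**Figure D3:**
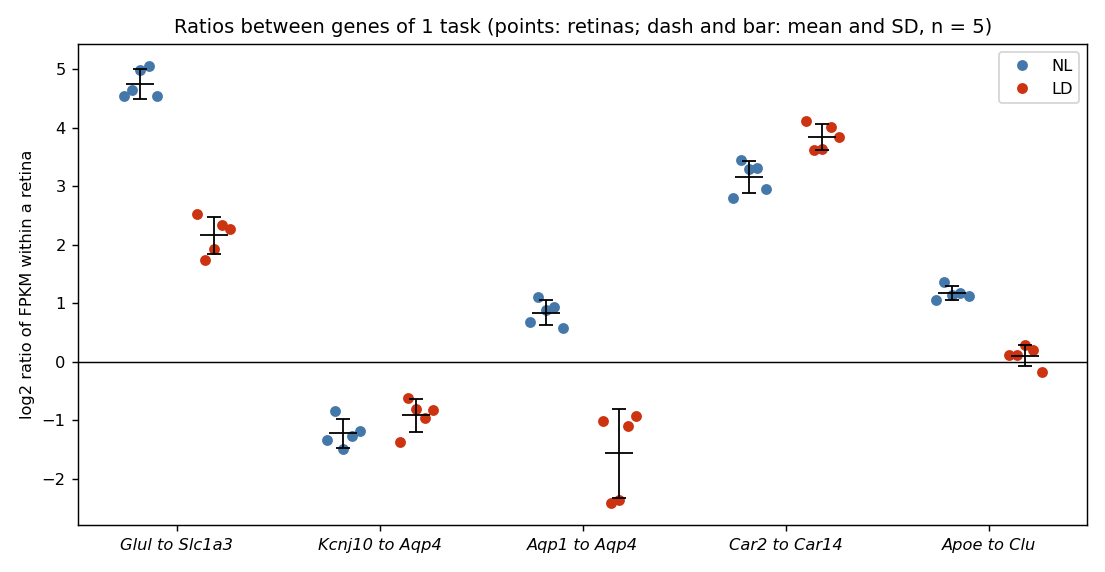
Log2 ratio of the FPKM of a pair of genes within a retina (y axis) for 5 pairs in NL (blue) and LD (red); points are single retinas, dashes the mean and error bars the SD of 5 retinas. The groups are apart for *Glul* to *Slc1a3*, *Aqp1* to *Aqp4*, *Car2* to *Car14* and *Apoe* to *Clu*, and overlap for *Kcnj10* to *Aqp4*.

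FPKM is per length of gene, so levels can be set side by side. In the NL retinas the order by mean was *Glul*, *Apoe*, *Dkk3*, *Car2*, *Clu*, *Aqp1*, *Aqp4*, *Slc1a3*, *Car14* and *Kcnj10*. Of the 9 neighbouring pairs in this order, 2 overlapped in their range over retinas, *Car2* with *Clu* and *Aqp4* with *Slc1a3*. After LD the order was *Apoe*, *Clu*, *Dkk3*, *Glul*, *Car2*, *Slc1a3*, *Aqp4*, *Kcnj10*, *Car14* and *Aqp1*, and 6 of the 9 pairs overlapped. *Glul* went from the first to the fourth place and *Aqp1* from the sixth to the last.

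The LD retinas were not alike for these genes. LD-4 and LD-6 had the highest LD values of *Slc1a3*, *Kcnj10*, *Aqp4*, *Car2*, *Car14* and *Dkk3* and the lowest of *Aqp1*. LD-4 and LD-6 were also the closest pair by reads (chi-square per gene 2.52), so their agreement may not be that of independent samples. Relative to the NL mean, *Kcnj10* was at 0.95 and 0.91 on the log2 scale in these retinas against -0.25 to 0.27 in the other LD retinas. *Glul* and *Clu* did not show this division: in all 5 LD retinas *Glul* was between -2.19 and -2.003 and *Clu* between 0.94 and 1.13.

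**Figure D4:**
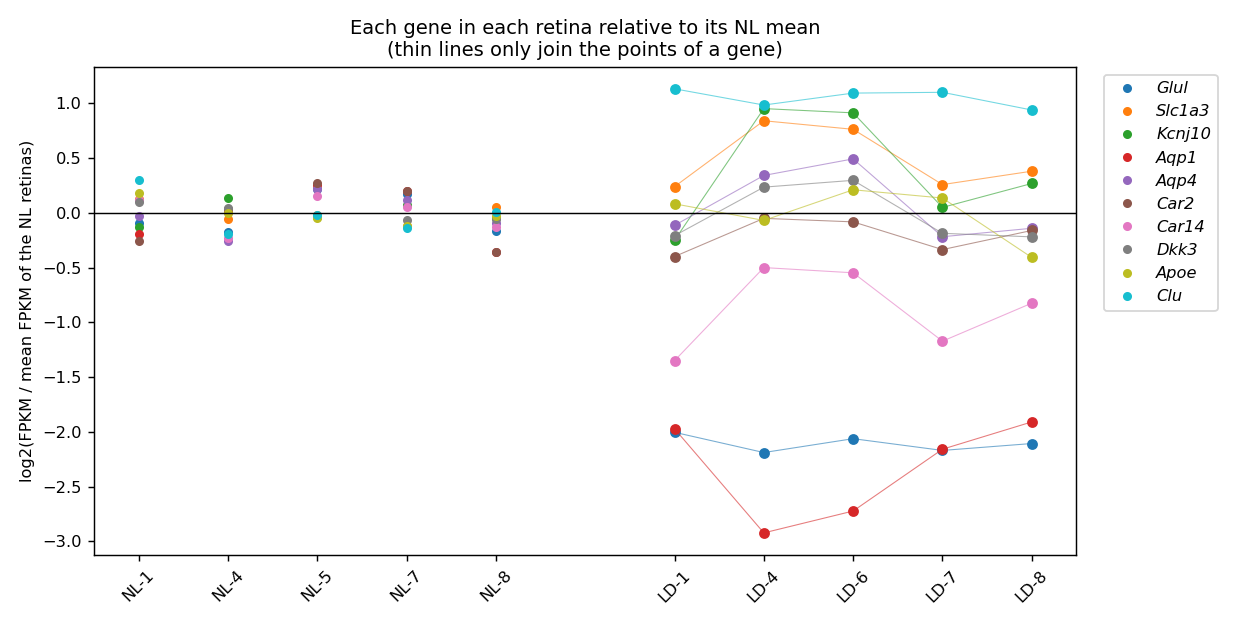
Log2 of the FPKM of each of the 10 genes over its mean in the NL retinas (y axis) in each retina (x axis); thin lines only join the points of a gene. Among the LD retinas *Glul* and *Clu* are nearly level, while *Kcnj10*, *Slc1a3*, *Aqp4*, *Dkk3* and *Car14* are higher and *Aqp1* is lower in LD-4 and LD-6.

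Other markers moved with this division. The 11 identity markers of Müller glia, which share no gene with the 10, summed to 465 and 459 FPKM in LD-4 and LD-6, with 289 to 344 FPKM in LD-1, LD-7 and LD-8 and 306 to 326 FPKM in NL. Their median log2 difference from the NL mean was 0.80 and 0.70 in LD-4 and LD-6 and -0.11 to 0.06 in the other LD retinas. The rod list was lowest in the same retinas, at a median of -2.73 and -2.66 against -1.91 to -1.71. The part of the cell type composition in these values was not tested.

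Over all 5 LD retinas, 3 of the 11 identity markers were higher, 2 were lower and 6 were not called (median log2 change 0.35). *Sox2*, a transcription factor of Müller glia, rose from 17.5 ± 0.86 to 36.7 ± 6.80 FPKM and the intermediate filament gene *Vim* from 25.5 ± 6.32 to 104 ± 21.8 FPKM, and *Sox9* was higher by 0.79 on the log2 scale. *Abca8a*, an ABC transporter gene, fell from 47.5 ± 2.69 to 28.4 ± 3.75 FPKM and the collagen gene *Col9a1* from 9.40 ± 1.18 to 4.26 ± 0.98 FPKM. *Rlbp1*, the retinaldehyde binding protein of these cells, was at 135 ± 17.7 and 98.5 ± 36.8 FPKM (adjusted p = 0.109). Without LD-4 and LD-6, 3 of these markers were higher and 4 lower. With the closest pairs averaged, 2 were higher and 2 lower.

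Genes of reactive glia went up in the same retinas. Of 13 such genes, with *Vim* also among the identity markers, 12 were higher and none lower, with a median log2 change of 2.95. With the closest pairs averaged, 10 were higher. The study itself named *Gfap*, *Edn2* and *Fgf2* of this list from these samples. The list was also chosen with earlier results of these data known, so the direction of its genes is not independent evidence. The genes named next are those of the list with the smallest adjusted p. *Nes*, encoding the filament protein nestin, rose from 0.998 ± 0.13 to 10.4 ± 0.94 FPKM, *Cd44*, a receptor for hyaluronan, from 1.85 ± 0.28 to 14.9 ± 1.70 FPKM, and *Timp1*, an inhibitor of matrix proteases, from 1.42 ± 0.33 to 15.6 ± 0.98 FPKM. The median log2 difference of this list in single LD retinas was 2.67 to 3.15, without the division of LD-4 and LD-6 from the others. Of the 6 astrocyte markers, *Aldh1l1* rose from 2.33 ± 0.24 to 11.9 ± 5.46 FPKM and none of the others was called.

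**Figure D5:**
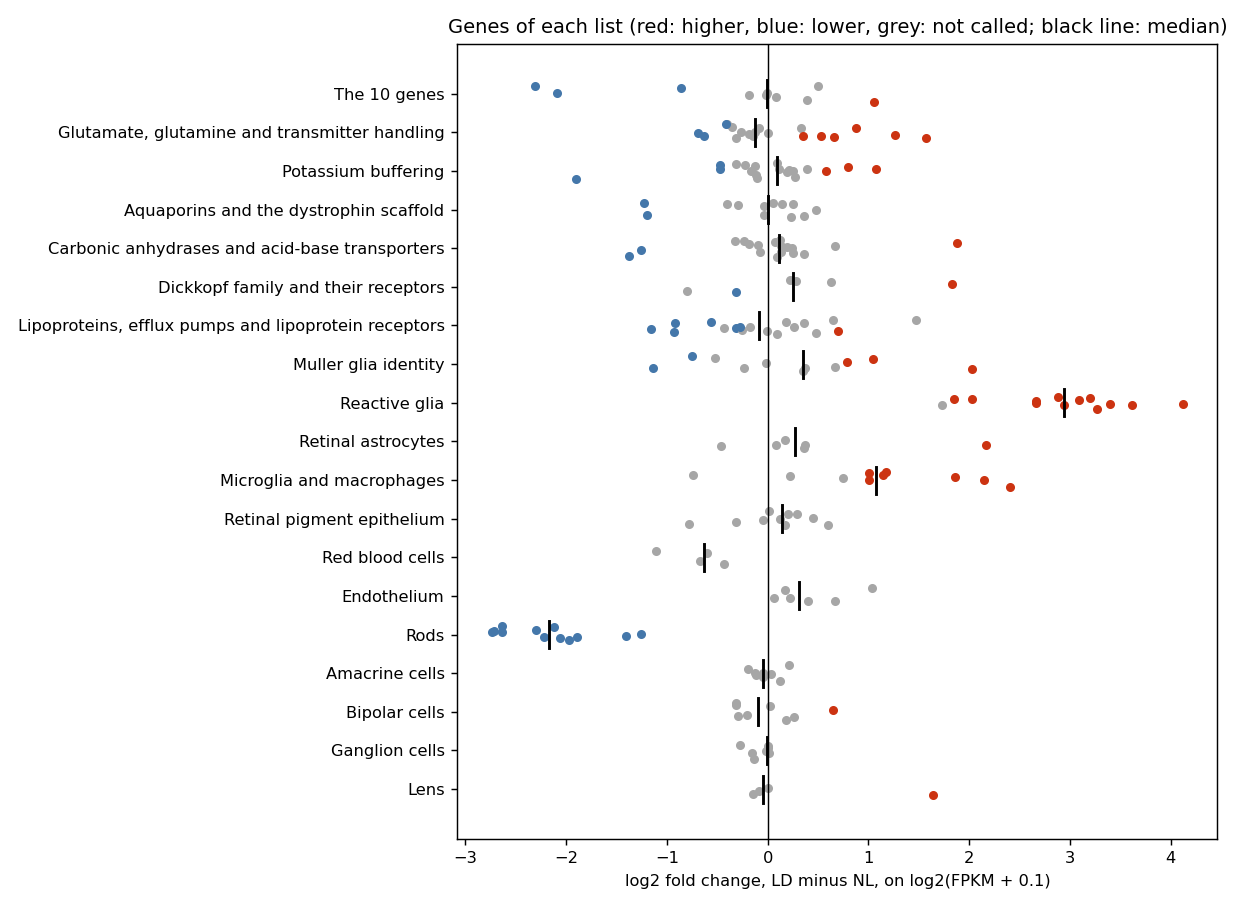
Log2 fold change after LD (x axis, LD minus NL on log2 of FPKM plus 0.1) of every tested gene of the 10 and of each list; red is higher, blue lower, grey not called, and a black line marks the median of a list. The 10 genes and the transport lists spread on both sides of 0, the reactive glia genes lie to the right at a median of 2.95 and the rod genes to the left at a median of -2.17.

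The median log2 change of the amacrine, bipolar and ganglion cell lists was -0.05, -0.09 and -0.01. Of 8 amacrine, 8 bipolar and 8 ganglion cell markers, 1 was called, *Grik1* of bipolar cells, which was higher (19.5 ± 1.61 and 30.7 ± 3.71 FPKM). None of 6 endothelial markers was called. Of 6 lens genes 4 were tested, and the small heat shock gene *Cryab*, also made by stressed glia, was higher (12.7 ± 1.17 and 43.0 ± 18.7 FPKM).

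Over the 10 retinas, the protein-coding genes with the most similar pattern to *Glul* among 12427 searched were *Slc16a1* (Pearson r = 0.995), *Fsbp* (0.994) and *Zscan29* (0.994). For *Aqp1* they were *Tma7*, *Optn* and *Guca1b* (each 0.997), the last encoding a guanylate cyclase activator of photoreceptors. *Guca1b* was at 396 ± 47.9 FPKM in NL and 96.7 ± 31.3 FPKM in LD. These values describe 10 points in 2 groups that are far apart, so the difference between the groups makes up most of each.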

How the data were processed

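RNA was sequenced from 5 NL and 5 LD neural retinas as paired reads, on a HiSeq by the paper and a NovaSeq by the labels. The submitters' processing notes name Bowtie2 2.0.6, TopHat2 2.0.9 and the mm8 build, but the positions in the table are of GRCm38, since 53499 of 54532 match GENCODE M21. The counting program and its strand setting are not given in the sources used here. The authors deposited FPKM per gene and retina, already scaled by a factor per retina. It was 0.951 to 0.968 in the NL and 1.04 to 1.07 in the LD retinas. The library size was multiplied by this factor, which lowered the LD values relative to those in NL. FPKM times length was a whole multiple of 1 read for 100% of values (tolerance 0.02 reads), which gave the depth, 18965090 to 26832535 reads per retina.

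The 24508 genes that reached 0.1 FPKM in 5 or more retinas were compared on log2(FPKM + 0.1), a scale that understates changes of low genes, by limma 3.58.1 (R 4.3.3) with a trend on mean level, no covariate and Benjamini-Hochberg adjustment. Calls used an adjusted p under 0.01, and the paper's fold change over 2 as a further criterion. On simulated data (LD against NL, 23592 genes) 193 of 200 changed genes were recovered by the adjusted p alone. With a change of over 2-fold required as well, 182 were called with the right sign and 2 unchanged genes were called. Unchanged genes passing by the adjusted p alone were not counted. The simulated samples were independent, with 1 spread for all genes, unlike the real retinas with their closest pairs. Only genes with many reads were changed, each by over 2-fold, so the recovery of smaller changes was not examined. The error rate of the calls in the real retinas was not tested. Ratios were compared by two-sided exact permutation tests in scipy 1.17.1 (Python 3.11.15, numpy 2.4.6, pandas 2.3.3, plots in matplotlib 3.10.9).

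The 10 genes and the lists were chosen with earlier results of these data known. Named are the 10 genes, up to 2 genes of each list with the highest NL mean and up to 3 with the smallest adjusted p, and the 3 genes most like *Glul* and *Aqp1* (Pearson r on log2(FPKM + 0.1), mean of at least 1 FPKM). Other list genes are named to spell out the calls and were chosen after their values were seen. Alternatives changed the pseudocount, filter, scaling, trend, test, threshold, block and retinas. Leaving out LD-4 with LD-6, or LD-1 with LD-7, was added after the values were seen. The promoter windows are from RefSeq. Some list genes that the naming rule selects are not reported here.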

Additional observations from a re-analysis of the deposited data

How the results depend on the processing

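*Glul*, *Aqp1* and *Clu* kept direction and call in all 24 alternatives, with log2 changes of -2.14 to -1.72, -2.49 to -1.99 and 1.01 to 1.25. The number of the 10 genes called higher went from 1 to 2, by the addition of *Slc1a3*, with at least 1 FPKM in 5 retinas, as TPM, after quantile normalization, without the factor per retina, in limma-voom and at an adjusted p under 0.05. With 1 retina left out at a time it was 1 to 2 (2 without LD-1 or without LD-7), and without both of these it was 3, with *Kcnj10*. Without the factor the median of all genes moved by 0.12 on the log2 scale, and calls over all genes were 3743 higher and 1156 lower (3304 and 1158 as TPM), against 2280 and 1898. Of the 67 list genes called, 3 or 4 lost the call under another scaling (TPM, quantile or no factor) and 0 changed sign. The signs of *Aqp4*, *Dkk3* and *Apoe* varied with the setting, within -0.15 to 0.24, -0.20 to 0.22 and -0.09 to 0.31.

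Replicate numbers 1, 4, 7 and 8 occur in both groups. For same-numbered retinas, deviations from the group mean correlated over genes at -0.09 to 0.07. For other pairs of an NL and an LD retina the correlation was -0.07 to 0.11. What the numbers mean is not given, and whether they pair samples cannot be told from these values. In the fit with the replicate block *Car14* was not called (-0.91, adjusted p = 0.0383), and calls over all genes were 807 higher and 515 lower, against 1413 and 959 for the same 8 retinas without it. With the replicate block the ratios of *Glul* to *Slc1a3*, *Aqp1* to *Aqp4*, *Car2* to *Car14* and *Apoe* to *Clu* differed by -2.48, -2.19, 0.77 and -1.12, each at the smallest exact p of 0.125 that 4 pairs allow. The *Kcnj10* to *Aqp4* difference was 0.23 to 0.42 with 1 retina left out, with an exact permutation p under 0.05 without NL-4 (0.40) or LD-1 (0.42), and also without LD-1 and LD-7 (0.47). The *Car2* to *Car14* difference missed an exact permutation p under 0.05 with the closest pairs averaged (0.72, p = 0.0571, exact) and without LD-1 and LD-7 (0.54, p = 0.0536, exact). The causes were not tested. With the closest pairs averaged, calls over all genes were 1144 higher and 820 lower. Independence of the 10 retinas is not given by the labels, and every p-value rests on it.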
